A study of Oryza sativa Indica Group with 12 samples.

Results

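Seedlings of indica rice IR64 kept for 5 d without potassium (KM) were compared with seedlings kept for the same 5 d with potassium (KP), on 3 Affymetrix rice arrays each. These are the 6 arrays whose titles name the potassium deficient or the potassium sufficient medium, out of 12 arrays in the series. All seedlings were first raised hydroponically for 5 d on the complete culture solution. The KM medium then held 0 mM potassium salt and the KP medium 0.409 mM K2SO4. Whether another sulfate replaced the K2SO4 left out of the KM medium is not stated. The remaining 6 arrays are seedlings resupplied with potassium for 6 h after the KM treatment (KR) and seedlings before transfer (0h). They enter here only through the shared estimate of spread and as levels beside some genes. RNA came from whole seedlings without the seed, so each value is a mixture of shoot and root. Whether a replicate held 1 or several seedlings, and the hour of harvest, are not stated.

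Potassium is the main cation of plant cells and sets their turgor, membrane potential and stomatal movement, and it is needed by many enzymes, pyruvate kinase among them. Roots take it up through HAK carriers, which work at low external potassium, and through the AKT1 channel, which is switched on by a CIPK kinase bound to a CBL calcium sensor. Plants short of potassium are known for slow growth, yellowing of leaves and changed sugar use.

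Values are the authors' GCRMA intensities on a log2 scale, where a difference of 1 is a 2-fold change. Each array's median was 2.70 to 2.73 in KM and 2.71 to 2.72 in KP. A group mean near these medians is near background and limits how large a fold change can be read. Within groups the array pairs correlated over all probe sets at Pearson r = 0.9969 to 0.9983 in KM and 0.9962 to 0.9970 in KP. Leaf markers were well above background in both groups (1 of 9 had a mean under 4 in each), and their summed linear intensity was 44467 to 44872 in KM and 68495 to 75795 in KP. Of 8 root markers 4 had a mean under 4 in both groups, with sums of 2665 to 3351 in KM and 3581 to 6179 in KP. Of 19 seed and germination markers, 15 had a mean under 4 in KM and 16 in KP, and their sums were 10353 to 12169 in KM and 358 to 2440 in KP. The alpha-amylase gene RAmy1A alone made 9978 to 11631 of the KM sums, and the median log2 change of the 19 genes was 0.0. The defining storage protein genes of the seed, such as GLUB-4 (2.48 to 2.55 in KM, 2.44 to 2.49 in KP), were at background. Among the control probe sets, the log2 difference between the 3' and 5' ends was 4.16 to 4.70 in KM and 4.73 to 4.92 in KP for actin. For Gapdh it was 1.53 to 1.78 in KM and 1.83 to 2.24 in KP. The part of tissue makeup or RNA quality in the results was not tested. In such whole-seedling RNA, fewer cells of a type and less RNA per cell cannot be told apart.

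Of 57258 probe sets, 1457 (2.54%) were called, which required a limma adjusted p under 0.05 together with a change of 2-fold or more. Without potassium 546 (0.954%) were higher and 911 (1.59%) were lower. Large changes were more often decreases: 70 probe sets were at least 4-fold higher and 238 at least 4-fold lower in KM, and at 16-fold the counts were 13 and 23. The p-values rest on the spread between the 3 arrays of each group, pooled over all 12 arrays, 0h and KR included. Wide 0h or KR arrays can thus weaken a call where the KM and KP arrays each lie close together. Close 0h or KR arrays can likewise strengthen a call where the KM or KP arrays are wide. With the KM and KP arrays alone 1179 probe sets were called, and 27 of the 166 called probe sets named below were not. In 756 called probe sets both group means were at least 6, well above background, with 256 higher and 500 lower. Only 11 went between a mean of at least 8 and a mean under 4, with 4 higher and 7 lower in KM. All 3 KM arrays lay outside the range of the 3 KP arrays in 23.6% of all probe sets (13.7% with KM above and 9.9% with KM below), so this separation alone is common here. By brightness, 0.19% of probe sets with a mean under 4 were called higher and 0.162% lower, against 2.76% and 5.26% of those with a mean of 10 to 12. Counting 1 probe set per annotated gene, 858 of 17905 genes (4.79%) were called, 284 higher (1.59%) and 574 lower (3.21%), and the median log2 change over all genes was 0.01. The gene lists were matched by symbol and miss family members known here only by a locus, so a list count describes its matched genes and not the whole family. Each gene is counted by its brightest probe set. Every list count of calls below is to be read beside the shares over all genes, 1.59% higher and 3.21% lower. Over all 57258 probe sets, 11042 had an unadjusted limma p under 0.05 and 5979 an adjusted p under 0.05 at any fold. List counts at those 2 thresholds are to be read beside these numbers.

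**Figure D1:**
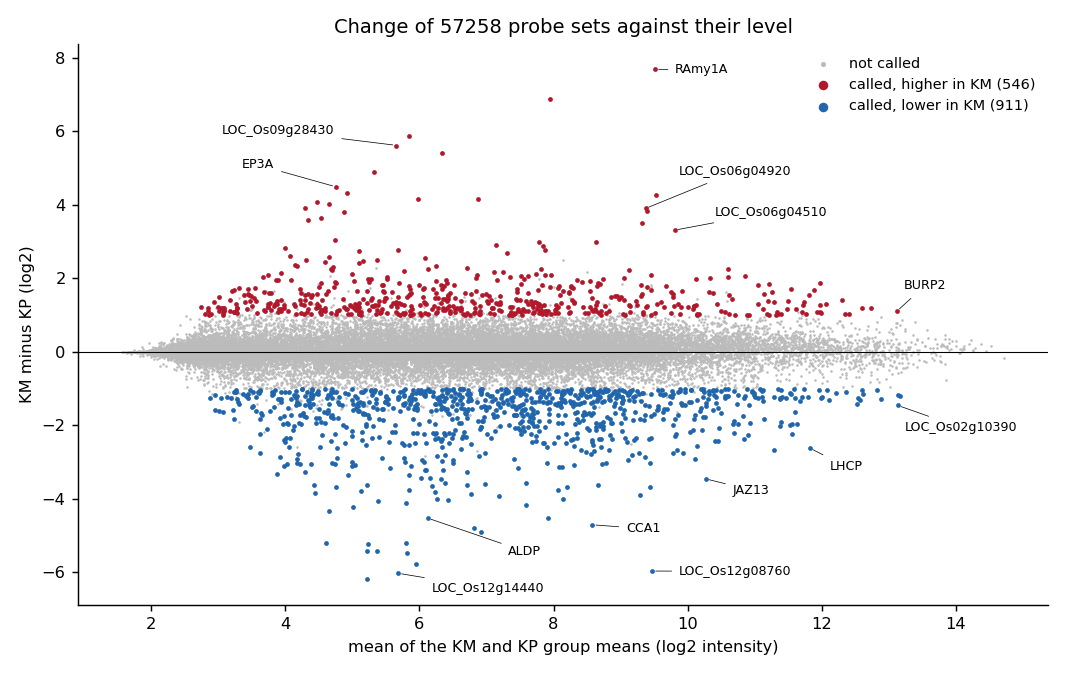
The log2 difference KM minus KP (vertical axis) against the mean of the KM and KP group means (horizontal axis, log2 intensity), 1 point for each of 57258 probe sets. Red points are the 546 called higher and blue points the 911 called lower in KM, and beyond 2 log2 units from 0 blue points (238) outnumber red ones (70), with RAmy1A the highest point.

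Chlorophyll genes were lower in KM as a group. Of 15 genes of chlorophyll synthesis and breakdown, 7 were lower, none was higher and 8 were not called, with a median log2 change of -0.83 against 0.01 over all genes. The same count of 7 came from the methods' t-test and from each fit that left out an array. CAO, the oxygenase that makes chlorophyll b, read 7.29, 7.31 and 7.20 in KM, against 10.26, 10.30 and 10.35 in KP, a log2 change of -3.04 ± 0.08 (SE, limma adjusted p = 2.6e-07). CHLH, the large subunit of magnesium chelatase at the entry to chlorophyll synthesis, read 7.73, 7.75 and 7.43 in KM, against 10.74, 10.65 and 10.37 in KP (-2.95 ± 0.16, limma adjusted p = 1.14e-05). The groups are far apart for both genes compared with the spread among arrays. A dimmer CHLH probe set was not called (log2 change -0.16). GLK1, a transcription factor that turns on chloroplast genes, read 5.66, 6.04 and 5.98 in KM, against 9.04, 9.07 and 9.07 in KP, which is 8.96-fold lower (limma adjusted p = 1.41e-06). Its paralogue GLK2 was 2.78-fold lower. CHLP, which reduces the phytol tail (log2 change -1.90 ± 0.09), and the protochlorophyllide reductases PORA (-1.52 ± 0.17) and PORB (-1.05 ± 0.06) were also lower. The list was not uniform. CHLD, the magnesium chelatase subunit D, had 10.37, 9.96 and 9.99 in KM, against 9.21, 9.52 and 9.35 in KP (log2 change 0.75, limma adjusted p = 0.00517), below the 2-fold threshold. NYC1, which begins chlorophyll b breakdown, stood at 0.61, GSA, an early step toward tetrapyrroles, at 0.44, CHLG, the chlorophyll synthase, at 0.25 and SGR, the stay-green protein, at -0.83 on its brightest probe set, all log2 changes that were not called. A dimmer SGR probe set was called lower (-1.09 ± 0.16), a call lost without KM replicate 1 or KP replicate 1, where the change fell just under 2-fold.

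**Figure D2:**
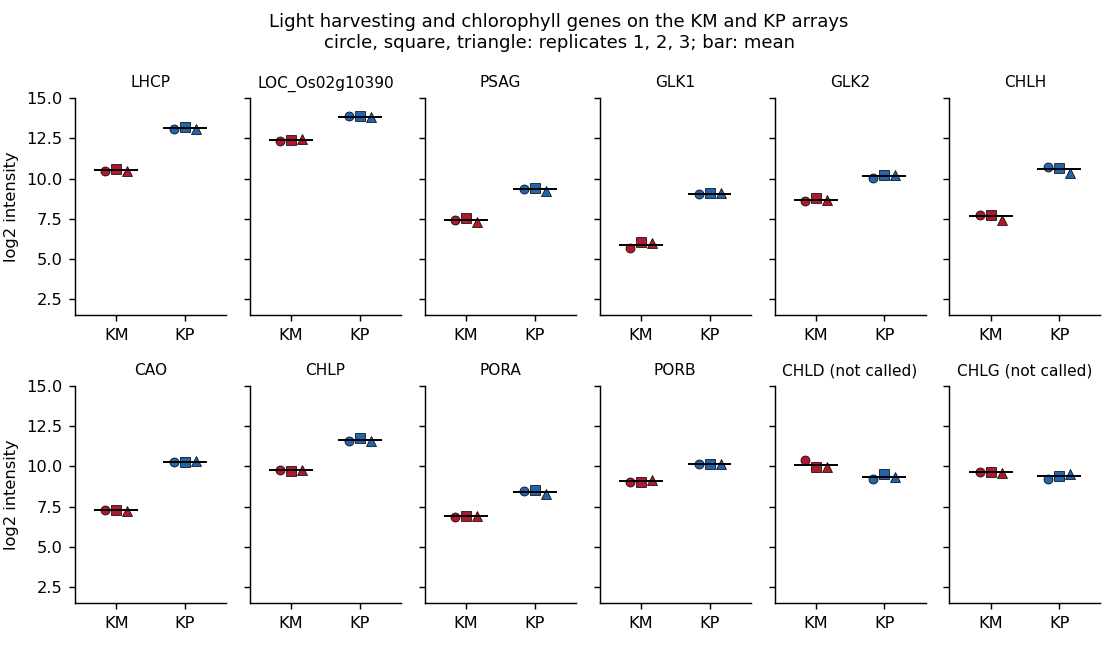
Log2 intensity (vertical axis) of light-harvesting and chlorophyll genes, 1 point per array, with the KM arrays left of the KP arrays and a bar at each group mean. LHCP, GLK1, CHLH and CAO show the widest gaps, while CHLD and CHLG, which were not called, lie slightly higher in KM.

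Light-harvesting proteins, which hold chlorophyll in the antenna of the photosystems, were among the brightest probe sets that decreased. LHCP read 10.47, 10.58 and 10.49 in KM, against 13.10, 13.21 and 13.08 in KP, which is 6.14-fold lower (limma adjusted p = 2.6e-07). The chlorophyll a/b binding gene LOC_Os02g10390 read 12.35, 12.40 and 12.48 in KM, against 13.91, 13.88 and 13.80 in KP (log2 change -1.46 ± 0.05). A further one, LOC_Os08g33820, was lower on each of 3 probe sets (-1.17, -1.30 and -1.41). For these genes every KM array lay at least 1 log2 unit below every KP array. Not all antenna genes moved this far: the brightest probe set of CAB2R had a log2 change of -0.76 and RCABP69 one of -0.82, both under 2-fold, although a dimmer CAB2R probe set was called (-1.31 ± 0.08). PSAG, a photosystem I subunit, was 3.77-fold lower. Of the 9 genes of light harvesting and the photosystems, 2 were lower, none was higher and 7 were not called. LFNR1, a leaf ferredoxin reductase, had a log2 change of 0.65 and was not called. Related probe sets of this family can share target sequence, so their levels are not fully separate measurements.

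Rubisco activase and Rubisco itself differed. RCA, the activase that keeps Rubisco working, had 12.78, 12.44 and 12.46 in KM, against 13.78, 13.84 and 13.69 in KP on its brightest probe set (log2 change -1.21 ± 0.11, limma adjusted p = 0.000285). All 4 RCA probe sets were called lower, the others at -1.05, -1.10 and -1.33. RBCS, the Rubisco small subunit, had 13.57, 13.63 and 13.67 in KM, against 13.26, 13.55 and 13.57 in KP, a log2 change of 0.16 that was not called. RCA was the only one of 9 carbon fixation genes called on its main probe set. The probe set at -1.05 was not called without KM replicate 2, where its change fell just under 2-fold. Carotenoid genes had 3 of 7 lower and 4 not called (median -0.81). PSY2, a phytoene synthase at the entry to the pathway, was 4.62-fold lower, ZEP, the zeaxanthin epoxidase, 3.24-fold lower and PSY3 2.03-fold lower, a call lost without KM replicate 1 or KM replicate 2. PSY1 (-0.81) and PDS (0.80), the desaturase that follows, were not called and had opposite signs. HO1, a heme oxygenase needed to make the phytochrome chromophore, was 2.26-fold lower and was the 1 gene of 15 called among flowering and photoreceptor genes.

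The clock gene CCA1, a MYB factor that peaks in the morning in plants, had one of the largest decreases among bright genes. It read 6.28, 6.42 and 5.98 in KM, against 10.89, 11.12 and 10.80 in KP (log2 change -4.71 ± 0.18, limma adjusted p = 1.59e-06). The KR arrays ranged over 6.44 to 6.99 and the 0h arrays over 11.24 to 11.59, so CCA1 lay low in KM and KR and high in KP and 0h. PCL1, an evening clock component, was higher, with 12.31, 12.55 and 12.54 in KM, against 11.23, 11.45 and 11.48 in KP (1.08 ± 0.09), a call lost without KP replicate 1, where the change fell just under 2-fold. PRR95 was lower (-1.09 ± 0.05). GI had a log2 change of 0.74, and PRR1 one of 0.17, neither called. In all 1 of 7 clock genes was higher and 2 were lower. CCA1 is counted by its brighter probe set, and its other one was not called (log2 change 0.0). Since clock transcripts change through the day and the hour of harvest is not stated, potassium and a difference in hour between KM and KP cannot be told apart for them.

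Large decreases were also found in genes of other functions, some of them bright only in KP or in neither group. LOC_Os12g08760, annotated as a carboxyvinyl-carboxyphosphonate phosphorylmutase, read 6.26, 6.55 and 6.65 in KM, against 12.61, 12.16 and 12.60 in KP, which is 62.6-fold lower (limma adjusted p = 1e-06). The MYB factor LOC_Os02g46030 was at background in KM, with 2.60, 2.68 and 2.71, against 7.97, 8.07 and 8.19 in KP (limma adjusted p = 1.34e-09). The jacalin-like lectin LOC_Os12g14440 also went to background, with 2.61, 2.78 and 2.61 in KM, against 9.62, 8.08 and 8.39 in KP. For these last 2 genes the fold is limited by background in KM. The lectin was at background in 0h as well (2.63 to 3.03), and the KR arrays read 2.69 to 5.35, so every KP array lay above all other arrays of the series. The B-box zinc finger gene LOC_Os04g41560 was 12.8-fold lower and the mitochondrial carrier LOC_Os10g42299 8.83-fold lower. The chloroplast omega-3 fatty acid desaturase LOC_Os03g18070, which makes the polyunsaturated lipids of chloroplast membranes, was 8.09-fold lower. The glyoxalase family gene LOC_Os07g06660 was 7.62-fold lower and the phosphatase LOC_Os03g49440 6.81-fold lower. SWEET2B, of the SWEET sugar carriers, read 2.85, 3.45 and 3.44 in KM, against 6.41, 6.46 and 6.95 in KP, and was the only one of 19 sugar transport genes called. SWEET4 (0.92) and SWEET1A (0.96) lay just under 2-fold higher and were not called. The homeobox factor Hox22 was 16.3-fold lower, with a low KM mean of 4.42, and CAD3, of the cinnamyl alcohol dehydrogenase family, was 5.50-fold lower.

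Among the brightest probe sets that were higher in KM, the 10 with the highest means changed by 2.05 to 3.19-fold. BURP2, a BURP-domain protein gene, read 13.86, 13.59 and 13.55 in KM, against 12.93, 12.27 and 12.51 in KP (log2 change 1.1 ± 0.16). The thiC gene LOC_Os03g47610, for a step of thiamine synthesis, read 13.03, 13.02 and 12.95 in KM, against 11.59, 11.53 and 11.67 in KP (1.40 ± 0.09, limma adjusted p = 3.17e-05). The thiC gene had the tighter groups, and the BURP2 call was lost without KM replicate 1 or KP replicate 2. The caspase-like (ICE-like p20 domain) protease gene LOC_Os03g27120 was 3.19-fold higher, BBD1, a nuclease gene, 2.44-fold higher and RUB1, a ubiquitin-like protein gene, 2.42-fold higher. RUB1 was the 1 gene called of 28 often used as references, whose summed intensity was 93982 to 96650 in KM and 90418 to 95583 in KP.

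Larger increases of bright genes were led by the zinc finger gene LOC_Os06g04920, with 11.27, 11.46 and 11.24 in KM, against 7.49, 7.78 and 6.98 in KP, which is 15-fold higher (limma adjusted p = 3.62e-05). Its other probe set gave 11.3-fold. The glutathione S-transferase LOC_Os01g72140, of a family that conjugates reactive compounds, was 7.94-fold higher. The neighbouring genes LOC_Os04g57880, a DnaJ co-chaperone, and LOC_Os04g57890, annotated as an oligosaccharyl transferase, were 7.34-fold and 6.81-fold higher. Their probe sets had similar means (9.28 and 9.26 in KM, 6.4 and 6.49 in KP, 2.33 and 2.48 in 0h). Whether they measure separate transcripts was not tested. Among laccases, copper oxidases of the cell wall, and peroxidases, 2 of 11 genes matched by symbol were called. LAC24 was higher (log2 change 2.23 ± 0.46), a call lost without KP replicate 1. LAC15 read 5.14, 4.62 and 4.28 in KM, against 2.79, 2.56 and 2.58 in KP, which is background, and its call was lost with a floor of 16. Members outside that list, chosen after their values were seen, were also higher. The peroxidase LOC_Os07g48050 read 6.70, 6.50 and 6.80 in KM, against 2.65, 2.64 and 2.64 in KP, at background, and the laccase LOC_Os12g15680 was 6.64-fold higher. Among the probe sets that only the study's category table names, which it chose on these arrays, 4 of 8 for peroxidases were higher and 2 lower, and the 1 for a laccase was higher. The indole-3-glycerol phosphate synthase LOC_Os09g08130, of tryptophan synthesis, was 4.51-fold higher. A glycosyl hydrolase of family 17, LOC_Os01g71340, was 4.74-fold higher and the thioredoxin domain gene LOC_Os06g21550 4.08-fold higher. The unnamed gene LOC4348520 had 9.17, 9.27 and 9.36 in KM, against 6.05, 6.45 and 6.36 in KP (2.98 ± 0.10).

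Alpha-amylase genes gave the largest increases in KM, with uneven KP arrays. Alpha-amylases cut starch and are best known from the germinating rice grain, where sugar shortage and gibberellin control them. RAmy1A read 13.51, 13.29 and 13.28 in KM, against 10.99, 3.49 and 2.54 in KP (log2 change 7.69 ± 1.81, limma adjusted p = 0.0266). The KP arrays thus ranged between background and a high level, and the call was lost without any KM replicate, without KP replicate 2 or 3, without the 0h arrays, and with the KM and KP arrays alone (adjusted p = 0.164). The amylase gene LOC_Os09g28430 was steadier on 1 of its 2 probe sets, with 8.93, 8.27 and 8.19 in KM, against 4.04, 2.36 and 2.14 in KP (5.62 ± 0.47, limma adjusted p = 0.000145). Its other probe set was not called (log2 change -0.0). LOC_Os02g52700, the neighbour of RAmy1A, had 8.91, 8.56 and 8.87 in KM, against 4.68, 2.01 and 2.01 in KP on 1 probe set, and 2 more gave log2 changes of 6.89 and 4.09. The one at 6.89 read 11.72, 11.19 and 11.27 in KM, against 7.83, 2.89 and 2.79 in KP, gave 8.55 without KP replicate 1, and was not called with the KM and KP arrays alone (limma adjusted p = 0.0677) or by the methods' t-test (0.146). The one at 4.09 read 2.45, 2.42 and 2.41 in KP, so KP replicate 1 stood apart on some of the amylase probe sets and not on this one. RAmy1A and LOC_Os02g52700 are close relatives side by side on chromosome 2 and may share hybridization. The other 4 of the 5 named alpha-amylases, AMY1.2, AMY1.3, AMY1.4 and AMY1.5, had means under 4 in both groups and were not called.

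EP3A, a cysteine proteinase of germinating grain, read 7.41, 6.38 and 7.22 in KM, against 3.32, 1.94 and 2.27 in KP (4.49 ± 0.57, limma adjusted p = 0.00133). The unnamed gene LOC4344595 had 8.97, 9.09 and 9.06 in KM, against 5.07, 2.88 and 2.96 in KP. The universal stress protein gene LOC_Os10g30150 had 8.22, 8.07 and 7.90 in KM, against 4.66, 3.52 and 3.51 in KP. In all of these KP replicate 1 was the highest KP array, and the summed linear intensity of seed and germination markers was 2440 in that array, 2031 of it from RAmy1A, and 617 and 358 in the other KP arrays. The methods state that RNA was taken from seedlings without seeds, and whether grain tissue differed between the arrays was not tested. RAmy1A was at background in 0h (2.22 to 2.58) and between KM and KP in KR (11.05 to 12.23). Its order of group means was KM, KR, KP and 0h. KP replicate 1 lay just under the KR range, and KP replicate 3 lay within the 0h range, so KP and 0h overlap.

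Sugar breakdown and low-oxygen genes were partly higher. The enolase LOC_Os06g04510, a glycolytic enzyme, read 11.23, 11.57 and 11.58 in KM, against 8.18, 8.10 and 8.19 in KP, which is 9.89-fold higher (limma adjusted p = 9.6e-06). The phosphoglycerate kinase LOC_Os06g45710, which acts before it in glycolysis, had 11.51, 11.23 and 11.29 in KM, against 9.70, 9.22 and 9.09 in KP (2.01 ± 0.18). The pyruvate kinase LOC_Os11g10980, also of glycolysis, went the other way and was called lower (log2 change -2.56). PDC2, the pyruvate decarboxylase that starts ethanol fermentation, was 2.33-fold higher and was the 1 gene called of 6 in fermentation and low oxygen (median log2 change 1.14). On its brightest probe set the hemoglobin gene NSHB1, of the non-symbiotic kind that binds oxygen tightly, had a log2 change of 1.98 that was not called (limma adjusted p = 0.0653), and NSHB2 had 2.49 (0.195). The other 2 NSHB1 probe sets were called, with log2 changes of 2.09 ± 0.53 (limma adjusted p = 0.0358) and 2.68 ± 0.68 (limma adjusted p = 0.0379), and both calls were lost without any 1 of the 6 arrays. With the KM and KP arrays alone 3 of the 6 genes were called. None of 28 starch and sucrose enzyme genes matched by symbol was called, with log2 changes of -0.53 to 0.77. Of these, 9 had an unadjusted limma p under 0.05, 7 an adjusted p under 0.05 below 2-fold, and the methods' t-test called none. These counts leave out the starch synthase LOC_Os07g22930 and the beta-amylase LOC_Os03g04770, known by locus, which the study reported as lower in KM.

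**Figure D3:**
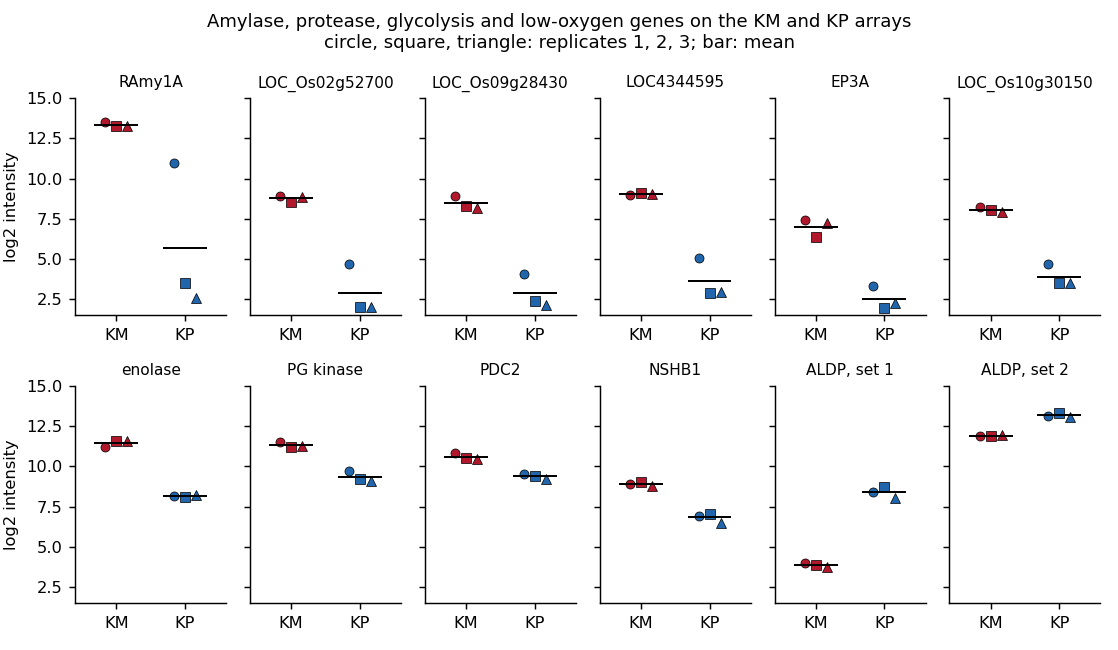
Log2 intensity (vertical axis) of amylase, proteinase, glycolysis and low-oxygen genes, 1 point per array, with the KM arrays left of the KP arrays and a bar at each group mean. KP replicate 1 lies above the other KP arrays for RAmy1A (10.99 against 3.49 and 2.54), while the KP arrays of the enolase lie together.

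ALDP, a chloroplast fructose-bisphosphate aldolase of the Calvin cycle, gave unequal values on its probe sets. One read 3.96, 3.86 and 3.76 in KM, against 8.39, 8.74 and 8.03 in KP, 23.1-fold lower. A brighter one read 11.88, 11.89 and 11.93 in KM, against 13.13, 13.31 and 13.07 in KP, 2.41-fold lower. A further one changed by -0.96 on the log2 scale, with group means of 12.54 in KM and 13.50 in KP, and was not called. All 3 probe sets were lower, and their sizes cannot be read as 1 gene-wide fold.

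Among potassium transport genes, decreases were called for HAK27, for 2 HKT carriers and on 1 probe set of a channel gene. Of 28 genes matched by symbol, mostly HAK carriers and channels with 1 HKT gene, HKT1.5, 1 was lower (3.57%, against 3.21% over all genes), none was higher and 27 were not called on their brightest probe sets, with a median log2 change of 0.00. HAK27 was the decrease in that list, with 4.60, 4.95 and 5.17 in KM, against 6.82, 6.38 and 6.32 in KP (log2 change -1.60 ± 0.16, limma adjusted p = 0.000328). The methods' t-test did not call it. The list holds neither HKT2;4 nor HKT2;3, sodium and potassium carriers known here only by locus, which are described after their values were seen. HKT2;4 (LOC_Os06g48800) read 2.71, 2.86 and 2.71 in KM, against 5.11, 5.24 and 5.69 in KP (-2.59 ± 0.13, limma adjusted p = 7.25e-06). HKT2;3 (LOC_Os01g34850) read 2.88, 2.74 and 2.76 in KM, against 4.31, 4.48 and 4.71 in KP (-1.71 ± 0.09, limma adjusted p = 9.84e-06). Both were at background in KM, which limits the fold, and the HKT2;3 change fell under 2-fold with a floor of 16. The KAT1-type channel LOC_Os01g11250 was called lower on 1 of 3 probe sets (-1.13 ± 0.18), a call lost without KP replicate 1, and the others gave -0.80 and -0.92. HAK1, a high-affinity root carrier, had 9.91, 9.94 and 9.72 in KM, against 9.14, 9.05 and 9.16 in KP (0.74, adjusted p = 0.246), and AKT1, the inward channel of roots, had 6.93, 7.27 and 7.06 in KM, against 6.54, 6.35 and 6.33 in KP (0.68, adjusted p = 0.00744). For both, every KM array lay above every KP array by less than 2-fold on average.

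HAK5, a high-affinity carrier known for its induction by low potassium, had probe sets that differed, and is described here because they do, chosen after their values were seen. The brightest read 12.33, 12.31 and 12.45 in KM, against 12.11, 12.24 and 12.24 in KP (log2 change 0.16, not called). The dimmer one read 6.64, 7.06 and 7.10 in KM, against 5.54, 5.34 and 4.73 in KP, which is 3.32-fold higher (1.73 ± 0.25, limma adjusted p = 0.00276). This probe set was at 5.34 to 6.12 in KR and 3.02 to 3.33 in 0h, so the KM arrays were the highest of the series. Its call held in each fit that left out an array and was not made by the methods' t-test (adjusted p = 0.0749). Which of the probe sets follows the HAK5 transcript was not tested.

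Genes of the CBL and CIPK pathway, which links calcium signals to ion channels, had 3 of 31 lower (9.68%, against 3.21% over all genes), none higher and 28 not called, with a median log2 change of 0.02. CIPK29 read 3.02, 3.06 and 3.25 in KM, against 5.11, 4.76 and 4.67 in KP (-1.74 ± 0.11), and the sensor CBL4 read 3.32, 3.55 and 3.44 in KM, against 5.09, 5.18 and 5.04 in KP (-1.66 ± 0.13). Both lie close to background in KM. CIPK8 was 2.04-fold lower, a call lost without KP replicate 3. CIPK7 is counted as not called by its brightest probe set (0.36), while its dimmer one read 7.36, 7.07 and 7.03 in KM, against 8.95, 8.66 and 8.53 in KP (-1.56 ± 0.15, limma adjusted p = 0.000277). CIPK23, the kinase of the AKT1 channel, had a log2 change of 0.06 and was not called.

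Nitrogen genes changed at single steps. NIA1, a nitrate reductase, read 10.79, 10.60 and 10.54 in KM, against 12.62, 12.77 and 12.48 in KP (-1.98 ± 0.12, limma adjusted p = 2.98e-05). GLN1-2, a cytosolic glutamine synthetase, moved the other way, with 12.08, 11.96 and 11.84 in KM, against 10.54, 10.45 and 10.85 in KP (1.35 ± 0.14). They were the 2 called of 7 nitrogen assimilation genes. AMT1-1, an ammonium transporter, was 3.51-fold lower and the 1 called of 11 ammonium, nitrate and peptide transporters matched by symbol. Peptide transporters known only by locus, named after their values were seen, went both ways. LOC_Os02g46460, annotated as PTR2, read 4.81, 5.35 and 4.97 in KM, against 7.52, 7.02 and 7.70 in KP (-2.37 ± 0.19), while LOC_Os01g65110 (1.53 ± 0.09, with 0.33 on its other probe set) and LOC_Os06g03700 (1.43 ± 0.12) were higher. Of 11 such probe sets in the study's category table, chosen there on these arrays, 5 were higher and 4 lower. Among 50 genes for iron, zinc, copper and silicon, 4 were lower (8.0%, against 3.21% over all genes), none was higher and 46 were not called. VIT1.2, a vacuolar iron transporter, read 8.08, 9.02 and 8.89 in KM, against 11.03, 10.34 and 11.51 in KP (-2.30 ± 0.32). The neighbouring nicotianamine synthase genes NAS1 and NAS2, whose product chelates metals, were 9.40-fold and 7.41-fold lower, with wide KP arrays (7.92, 9.24 and 6.01 for NAS1). They resemble each other and may share hybridization, and both limma calls were lost with the KM and KP arrays alone, that on NAS1 also without KM replicate 2, KM replicate 3 or KP replicate 1. ZIP4, a zinc transporter, was 2.20-fold lower. Of 21 phosphate starvation genes and 9 ion and proton exchangers none was called by limma or by the methods' t-test, with 7 and 3 at an unadjusted p under 0.05.

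Water channels were lower or not called. Of 25 aquaporins 5 were lower, none was higher and 20 were not called, with a median log2 change of -0.23. TIP2-1, of the vacuolar membrane, read 10.80, 10.15 and 10.17 in KM, against 11.95, 12.42 and 12.77 in KP (-2.01 ± 0.23). PIP2-4, of the plasma membrane, read 7.35, 6.74 and 6.46 in KM, against 8.44, 8.95 and 9.29 in KP (-2.04 ± 0.25). TIP1-2 (-1.73 ± 0.33), PIP2-5 (-1.50 ± 0.26) and PIP1-3 (-1.35 ± 0.19) were also lower. In all 5 genes KM replicate 1 was the highest KM array, KP replicate 1 the lowest KP array and KP replicate 3 the highest. The summed root markers, which hold PIP2-5, were likewise highest in KM replicate 1 (3351) and in KP replicate 3 (6179). With the KM and KP arrays alone 3 of the 5 were called, and none by the methods' t-test. PIP2-4 and PIP2-5 are neighbours and near relatives and may share hybridization.

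Jasmonate genes, of the hormone of wounding and defence, had decreases among the JAZ repressors, which jasmonate itself induces and destroys. Of 40 genes on the list, which also holds related TIFY-domain genes, 5 were lower, 2 higher and 33 not called, with a median log2 change of 0.00. JAZ13 read 7.66, 8.89 and 9.08 in KM, against 12.59, 12.46 and 10.96 in KP, 11-fold lower (limma adjusted p = 0.00214). JAZ9 was 6.92-fold and JAZ10 3.76-fold lower, and BHLH148, a jasmonate-induced factor that binds JAZ proteins, was 7.0-fold lower. JAZ4 (-0.87), JAZ6 (-0.90) and JAZ12 (-0.96) passed the adjusted p but not the 2-fold threshold on their brightest probe sets, JAZ11 (-1.02) missed the adjusted p, and JAZ3 (0.70) had the other sign. A dimmer JAZ4 probe set was called lower (-1.23 ± 0.24). The biosynthesis genes were divided. LOX1.1, a lipoxygenase, read 2.72, 3.47 and 3.50 in KM, against 7.67, 6.00 and 7.40 in KP, 13.8-fold lower, and AOS4, an allene oxide synthase, was 3.31-fold lower. OPR7 (1.07 ± 0.18) and OPR1 (1.66 ± 0.44), of the OPDA reductase family, were higher, and the OPR1 call was lost without any 1 of the 6 arrays. The AOS4 call was lost without KM replicate 2 or 3 or KP replicate 1 or 3, and the OPR7 call without KM replicate 2 or KP replicate 1. None of the 40 genes was called by the methods' t-test.

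Among calcium sensors and stress transcription factors most calls were decreases. Of 48 calcium-dependent kinases and calmodulin-like proteins, 8 were lower, 1 was higher and 39 were not called (median -0.09). CML15 read 9.16, 10.13 and 10.03 in KM, against 12.14, 11.91 and 11.14 in KP (-1.96 ± 0.31), and CML31 8.43, 9.80 and 9.87 in KM, against 11.63, 11.29 and 10.50 in KP (-1.77 ± 0.43). CML14, CML27, CML16, CPK9 and CDPK1 were lower, with log2 changes of -1.03 to -1.94. CML1 was the increase, with 11.99, 11.98 and 11.81 in KM, against 10.42, 10.24 and 10.41 in KP (1.57 ± 0.11, limma adjusted p = 5.68e-05), and the methods' t-test also called it. DREB1B, a cold and drought factor, read 7.66, 9.19 and 9.26 in KM, against 11.25, 11.29 and 10.30 in KP (-2.25 ± 0.45). WRKY71 was 3.53-fold, MYB2 3.61-fold, MYB4 2.31-fold and BHLH004 2.62-fold lower. Called lower were 1 of 6 WRKY, 1 of 13 DREB and ERF, 2 of 10 MYB and 2 of 15 bHLH genes. None of these lists held a gene called higher, and in the same order 5, 12, 8 and 13 genes were not called. Their median log2 changes were -1.27, -0.0, -0.31 and -0.07. Over the 19 genes called lower in the calcium, jasmonate, WRKY, DREB and ERF, MYB and bHLH lists, KM replicate 1 was the lowest KM array in 17 and KP replicate 3 the lowest KP array in 15. The arrays of a group thus moved together in these genes. The methods' t-test called 2 of the 8 calcium genes lower and none of the lower jasmonate, WRKY, DREB and ERF, MYB and bHLH genes, and limma with the KM and KP arrays alone called 4 of the 8. With those arrays alone WRKY71, DREB1B, MYB2 and MYB4 were not called (limma adjusted p = 0.051, 0.0914, 0.116 and 0.0954). KP replicate 1 decided several calls: without it CML16, CML31, DREB1B, MYB2 and MYB4 were not called. CML16 was also lost without KM replicate 1, CML31 without KM replicate 1 or KP replicate 2, MYB2 without KP replicate 2, and MYB4 without KM replicate 1 or 3 or KP replicate 2.

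**Figure D4:**
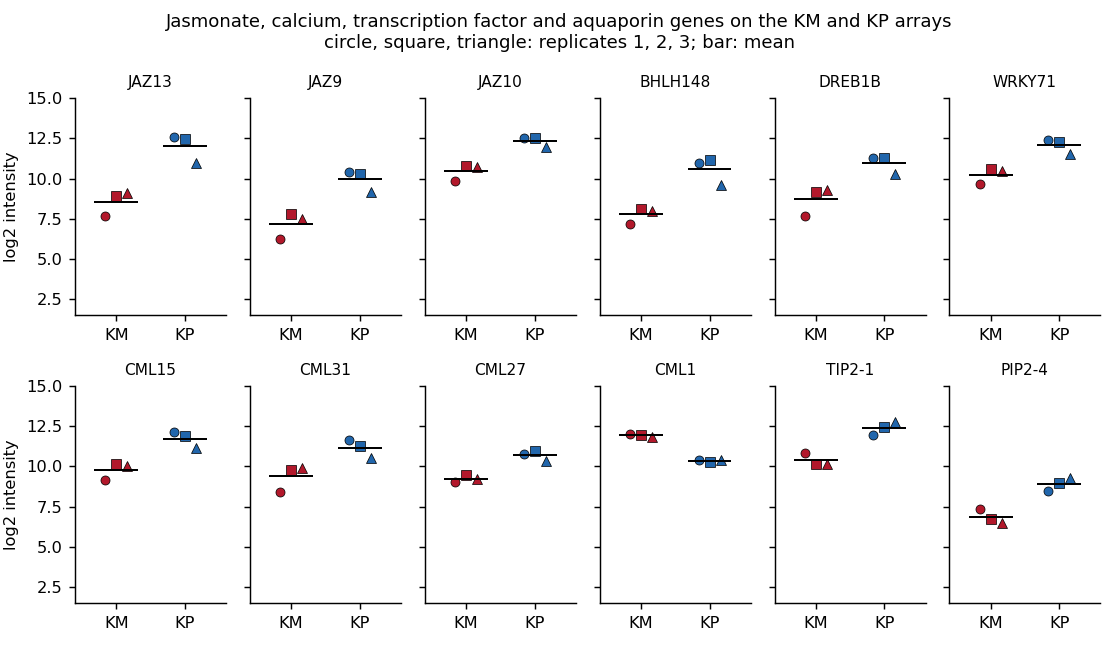
Log2 intensity (vertical axis) of jasmonate, calcium, transcription factor and water channel genes, 1 point per array, with the KM arrays left of the KP arrays and a bar at each group mean. JAZ13 and DREB1B show 1 low KM array and 1 low KP array (replicate 1 and replicate 3), and CML1 is the one gene here that lies higher in KM.

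Abscisic acid genes, of the hormone of water deficit, had 8 of 74 lower, none higher and 66 not called (median -0.11), and the methods' t-test called 3 of them. Dhn1, a dehydrin that protects drying cells, read 9.16, 8.68 and 8.89 in KM, against 10.46 in each KP array (-1.55 ± 0.14, limma adjusted p = 0.000245). Only 1 of the 3 Dhn1 probe sets was called. BZIP23, a factor that acts downstream of the hormone, was 2.14-fold lower. The phosphatases PP2C15, PP2C39, PP2C35, PP2C08, PP2C32 and PP2C68, of the type 2C family to which the hormone's negative regulators belong, were lower, with log2 changes of -1.15 to -1.43. The calls on PP2C08 and PP2C68 were lost without any 1 of the 6 arrays, and that on PP2C32 without KM replicate 1 or 2 or KP replicate 1 or 2. Outside that list and counted with the cytochromes P450, ABA8OX1, which breaks the hormone down, was 2.56-fold lower, a call lost with the KM and KP arrays alone and without KM replicate 1, KP replicate 1 or KP replicate 2.

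Other hormone lists had calls at single genes. Auxin response genes had 3 of 60 higher (5.0%, against 1.59% over all genes), 1 lower and 56 not called. SAUR39 (3.02-fold), IAA2 (2.31-fold), a repressor of auxin response, and GH3.2 (2.10-fold), which ties auxin to amino acids, were higher, and the auxin exporter PIN3A was 2.07-fold lower. Cytokinin genes had 3 of 31 lower (9.68%, against 3.21% over all genes) and 28 not called: the response regulator RR9 (2.64-fold), the degrading oxidase CKX4 (2.36-fold) and LOGL3 (2.02-fold), a cytokinin-activating enzyme. Of 13 gibberellin genes KAO, an early oxidase, was 2.34-fold higher and GA20OX3, a later one, 2.01-fold lower. Without KP replicate 1 the calls on SAUR39, GH3.2, LOGL3 and GA20OX3 were lost. They were lost too without KM replicate 2 or 3 or KP replicate 2 for SAUR39, KM replicate 1 or 2 for GH3.2, KM replicate 3 or KP replicate 3 for LOGL3, and KM replicate 1 or 3 or KP replicate 3 for GA20OX3. None of 11 ethylene genes (log2 changes of -0.16 to 0.34) and none of 10 brassinosteroid and strigolactone genes (-0.47 to 0.50) was called by limma or by the methods' t-test, with 2 and 3 at an unadjusted p under 0.05.

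Diterpenoid phytoalexins, the antimicrobial terpenes of rice, had 3 of 17 genes higher, none lower and 14 not called, with a median log2 change of 0.88. CYP71Z7 read 10.28, 10.52 and 10.71 in KM, against 8.36, 8.87 and 7.97 in KP (2.10 ± 0.44, limma adjusted p = 0.0162), and KSL7, a diterpene synthase, read 8.97, 9.09 and 8.85 in KM, against 7.48, 7.94 and 7.51 in KP (1.33 ± 0.18). CYP76M6 was also higher (1.5 ± 0.07) at a low level, with a KP mean near background. With a floor of 16 its change was 0.0 and the call was lost, and its other probe set was flat (-0.04). CPS2, the synthase at the entry of one branch, had 8.95, 8.98 and 8.75 in KM, against 6.92, 7.96 and 6.49 in KP (1.77, adjusted p = 0.0879) and was not called. In the 10 genes of the list with a mean of at least 6, KP replicate 2 was the highest KP array each time. The CYP71Z7 call was lost without KM replicate 2 or 3 or KP replicate 1 or 3.

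Redox and heat shock genes were divided. Of 55 glutathione and antioxidant genes matched by symbol 4 were lower and 1 was higher, a list without LOC_Os01g72140 and 4 more glutathione S-transferase probe sets named only in the study's category table, which chose them on these arrays and of which all 5 were higher. Trx03 (5.42-fold), a thioredoxin of type f, Trx18 (2.09-fold), another thioredoxin, and the glutaredoxins GRXC1 (2.28-fold) and GRXS2 (2.51-fold) were lower, and the peroxiredoxin PRXIIE-2 was 2.02-fold higher. Of 52 heat shock genes 6 were lower (11.5%, against 3.21% over all genes) and 2 higher (3.85%, against 1.59%). The heat stress factors HSF1 (-1.69 ± 0.20), HSF05 (-1.73 ± 0.38), HSF07 (-1.37 ± 0.34) and HSF24 (-1.0 ± 0.17) were lower, as were the small heat shock proteins HSP16.0 and HSP18.6, while HSP16.9A (2.33 ± 0.36) and HSP24.1 (1.05 ± 0.20) were higher. The methods' t-test called 3 of the 6 decreases and neither increase. Of the genes in these lists, Trx18, PRXIIE-2, HSF07 and HSF24 were not called without KP replicate 1, PRXIIE-2, HSF07 and HSF24 without KM replicate 1, and HSF07 and HSP18.6 without KP replicate 2. PRXIIE-2, HSF05, HSP18.6 and HSP24.1 were not called without KM replicate 2, HSF05, HSF07, HSP18.6 and HSP24.1 without KM replicate 3, and HSF05 and HSP18.6 without KP replicate 3. Among transcription factors of development, 3 of 31 MADS genes were higher (9.68%, against 1.59% over all genes), namely MADS2 (2.25-fold), MADS58 (2.78-fold) and MADS1 (3.35-fold). Of 43 homeobox genes HOX15 was 2.42-fold higher and Hox22 and Hox13 (2.08-fold) were lower. These homeobox shares, 2.33% higher and 4.65% lower, lie near those over all genes (1.59% and 3.21%). MADS1 lies near background in KP, and both MADS1 and MADS58 were not called with the KM and KP arrays alone. MADS1 was also lost without KM replicate 3 or KP replicate 2, MADS58 without any 1 of the arrays except KP replicate 1, and Hox13 without KP replicate 1. Expansins and wall enzymes had EXPA2 higher (2.40-fold) and EXPB2 lower (3.35-fold) among 76 genes, and the EXPA2 call was lost without any 1 of the 6 arrays. With 1.32% called in each direction this list lay under the shares over all genes.

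Growth machinery showed no calls or 1, beside shares over all genes of 1.59% higher and 3.21% lower. At such shares a list of this length can hold no call without differing from all genes. None of 26 DNA replication genes was called by limma or by the methods' t-test, with log2 changes of -0.46 to 0.73. Of these, 10 had an unadjusted limma p under 0.05 and 6 an adjusted p under 0.05 below 2-fold. Histone and ribosomal genes had none of 33 called (-0.40 to 0.57, median 0.15), with 19 at an unadjusted p under 0.05. An adjusted limma p under 0.05 below 2-fold was found for 14 of the 33, beside 5979 of 57258 probe sets at any fold. The lack of calls in this list thus means changes under 2-fold and not unchanged genes. Of 42 cell cycle genes 1 (2.38%, against 3.21% over all genes), CYCP2-1, a P-type cyclin, was 2.32-fold lower. That call was not made with the KM and KP arrays alone or without KM replicate 1, KP replicate 2 or KP replicate 3. None of 8 NAC genes was called by limma or by the methods' t-test, with 2 at an unadjusted p under 0.05. The bZIP factors had BZIP23 and BZIP52 (2.69-fold) lower of 21, with the BZIP52 call lost without any 1 of the 6 arrays. Of 18 pathogenesis-related genes the chitinase Cht10 was lower (2.18-fold). MAPK6, also called MPK7, was 2.10-fold lower and BIMK2 2.77-fold higher among 16 MAP kinase genes.

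**Figure D5:**
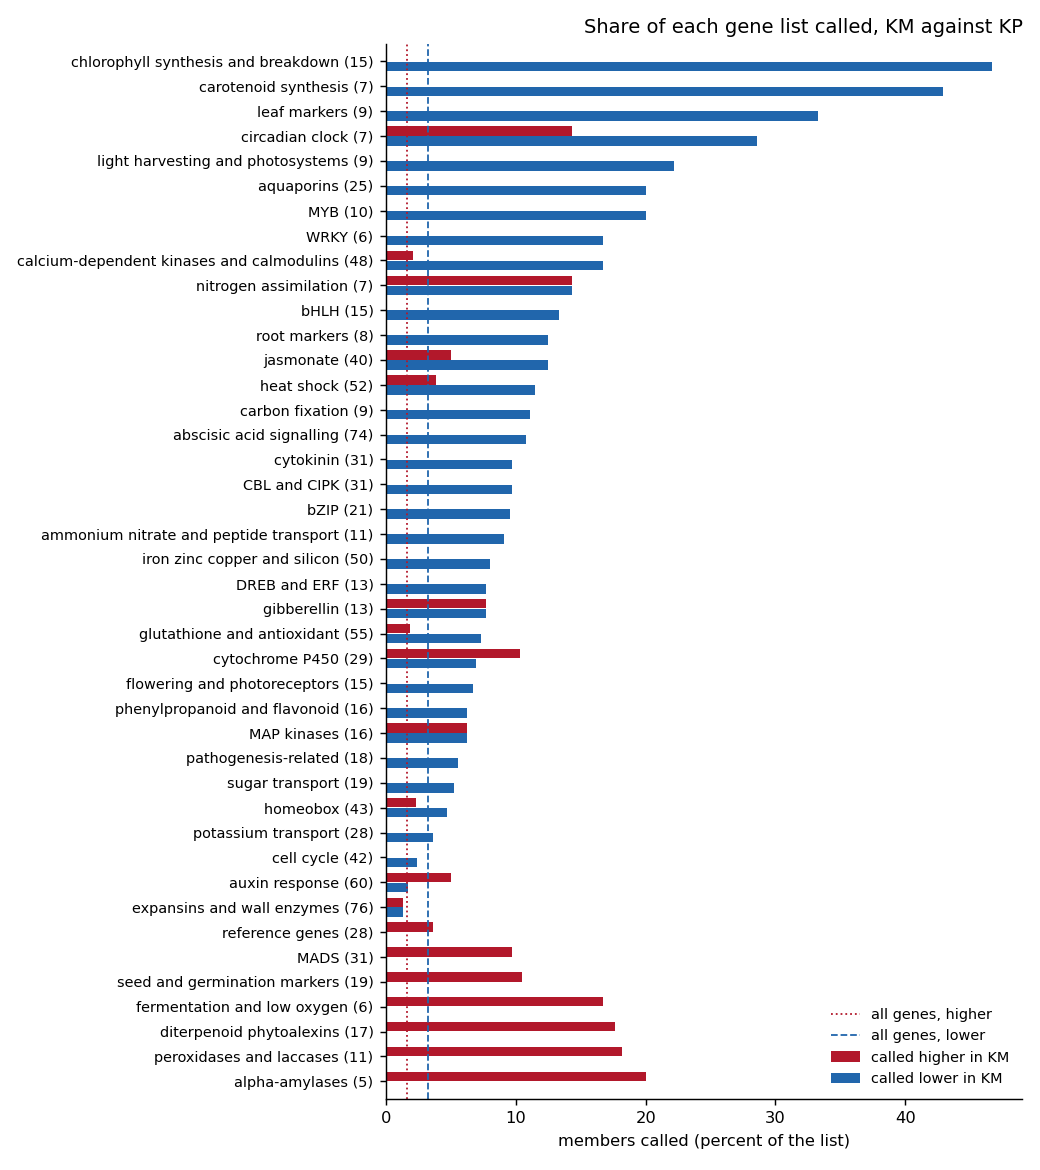
The percentage of each list's genes called higher (red) and lower (blue) in KM, for lists of at least 5 genes with at least 1 call, beside lines at the shares over all genes (1.59% higher and 3.21% lower). Chlorophyll genes have 7 of 15 lower, and in short lists 1 gene makes a long bar.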

How the data were processed

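RNA from whole rice seedlings, without seeds, was hybridized to Affymetrix rice arrays, 3 for each of KM, KP, KR and 0h. Arrays were grouped by title. A treatment tag of the 0h arrays names the medium without potassium, against their title. The deposited intensity values were made by the authors, with GCOS 1.2.1 (per the submitters' processing notes) and GCRMA normalization in array assist software, and are on a linear scale. GCRMA pools probes and shrinks dim values, so changes near background are uncertain. No raw scans were used.

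The log2 transform used a floor of 1, below which 0 values lay. After 123 control probe sets were set aside, 57258 were tested with limma 3.58.1 (R 4.3.3), 1 mean per group over 12 arrays, contrast KM minus KP, Benjamini-Hochberg adjusted over all of them, with calls made where the adjusted p was under 0.05 and the change 2-fold or more. The study's methods name a t-test, run as an alternative. Errors after ± are limma standard errors.

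Genes were named from the platform annotation (22436 probe sets with 1 gene, 34727 with none), the RefSeq gene table (ASM3414082v1, names and gene order only; 2455 genes with a name) and loci of the study's category table (412 probe sets). Of 326 such loci, 320 lay on the chromosome of the RefSeq gene. The arrays' design predates these names. List members were matched by symbol, 1 probe set per gene, the one with the highest mean. Members and lists were chosen with earlier results of these data known. Named genes were the 20 largest increases and decreases with both means of at least 6 and no overlap, those with 1 mean of at least 8 and the other under 4, the 10 brightest called in each direction, and up to 8 called members of a list (or its brightest member). Other named list members did not pass. The dimmer probe sets of HAK5, SGR, CIPK7, JAZ4 and NSHB1, 2 of LOC_Os02g52700, and the HKT2;3, HKT2;4, LOC_Os01g11250, peptide transporter, peroxidase and laccase probe sets without a symbol were added after their values were seen. The pyruvate kinase LOC_Os11g10980, the starch synthase LOC_Os07g22930 and the beta-amylase LOC_Os03g04770 were added likewise and are not in the counts of named probe sets. The number of arrays limits the precision. Alternatives covered other tests, scalings, filters and thresholds, and fits without each array. Scripts were tested on simulated data. Python 3.11.15 was used for counts and figures.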

Additional observations from a re-analysis of the deposited data

How the results depend on the processing

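At the thresholds used, 1457 probe sets were called, 546 higher and 911 lower in KM. The methods' t-test called 722 (281 higher, 441 lower), 703 of them also called in the same direction by limma. With no fold threshold 5979 were called (3495 higher, 2484 lower), at 1.5-fold 3364 (1696 and 1668) and at 3-fold 547 (161 and 386), so the balance of increases and decreases depends on the fold threshold. Other settings stayed within 1.5 times the counts: 1179 with the KM and KP arrays alone, 1409 without the 0h arrays, 1452 after quantile normalization, 1440 with equal medians, 1421 with a mean of at least 4, 1201 with a floor of 16, and 1107 at an adjusted p under 0.01. Leaving out each array in turn gave 1218 to 1474 called (426 to 571 higher, 742 to 970 lower). In all 954 probe sets (333 higher, 621 lower) were called in each of these 6 fits, and 596 also by the methods' t-test and with the KM and KP arrays alone. Of the 166 named probe sets that were called, 123 were called in each of the 6, 99 by the methods' t-test and 139 with the KM and KP arrays alone, and none changed direction under an alternative. Replicate numbers were not used to pair the samples in the main fit. KM and KP arrays of the same number had deviations correlated at -0.033, 0.037 and -0.113 over all probe sets. Of these, 36404 had a mean under 4, so the correlations cannot settle whether same-numbered arrays were handled together. With the replicate block 1361 were called over 12 arrays (515 higher, 846 lower) and 632 with the KM and KP arrays alone (246 higher, 386 lower). No separate depth is known for arrays, and signal near background limits the 305 called probe sets whose lower group mean was under 4.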

Other observations

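Of 3444 genes with several probe sets, 249 had at least 1 call. In 43 of them all probe sets were called in the same direction, in 206 some were not called, and in 0 were calls made in both directions. Named genes whose other probe set was flat include NIA1 (-0.0), PSAG (-0.0), LOC_Os03g18070 (-0.0), AMT1-1 (-0.01) and CYP76M6 (-0.04), as log2 changes. Dhn1 and HSP18.6 each had 1 of 3 probe sets called, and the highest of the 3 was flat (-0.0). The other PP2C39 probe set was at -0.64 and was not called. On the chromosomes, 9 of 284 genes called higher (3.17%) and 32 of 574 called lower (5.57%) were followed, among the genes with a probe set, by a gene called in the same direction. Such pairs include NAS2 and NAS1, PIP2-4 and PIP2-5, LOC_Os02g52700 and RAmy1A, and GH3.2 and LOC_Os01g55950. A run of 4 decreases on chromosome 1 was LOC_Os01g50370 (-2.61), LOC_Os01g50400 (-1.90), LOC4326919 (-2.68) and LOC4326920 (-2.41), as log2 changes.

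Among the 911 probe sets called lower, KP replicate 3 was the KP array nearest to KM in 458, replicate 2 in 251 and replicate 1 in 202. Among the 546 called higher, KM replicate 1 was the KM array nearest to KP in 281, replicate 3 in 160 and replicate 2 in 105.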
